A study of Mus musculus with 6 samples.

Results

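The giant linker and scaffold proteins of the cytoskeleton were followed here through 8 genes, Macf1, Flna, Iqgap1, Ank2, Plec, Myh9, Myh10 and Tln1, of 6532 genes in the deposited table. The genes were taken by symbol, and 4 of them (Macf1, Flna, Iqgap1 and Ank2) were selected on their translation efficiency, which was lower after knockdown of pyruvate kinase M (PKM). Their RNA, RPF and translation efficiency values in that comparison are therefore a description. All 8 were present and passed the low-count floor.

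The study sequenced messenger RNA, ribosome-protected fragments (RPF, the footprints of ribosomes) and RNA crosslinked to a tagged enzyme in E14 cells, an established mouse embryonic stem cell line grown on gelatin in serum medium with LIF. Wild-type E14 cells were transfected with control siRNAs that target no gene (siCtrl) or with a pool of siRNAs against PKM (siPKM), each at 20 nM for 36 h, were passaged 16 h before harvest and were given cycloheximide at 100 µg/ml for 2 min. Each siRNA group gave 1 library of rRNA-depleted total RNA and 1 RPF library, so no difference between siPKM and siCtrl has a replicate check. FAST-iCLIP libraries (2 replicates) came from E14 cells carrying FLAG- and HA-tagged PKM2, which were irradiated with UV at 0.35 J/cm2 to crosslink protein to RNA. Whether the replicates came from separate cultures is not in the labels. Their SD may thus be technical, and no control library without the tag was used here.

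The cytoskeleton of an animal cell consists of actin filaments, microtubules and intermediate filaments. Very large proteins hold these fibres to each other and to the membrane: spectraplakins and plakins cross-link different fibre types, filamins cross-link actin, ankyrins tie membrane proteins to spectrin, talin joins integrins to actin, and nonmuscle myosin II pulls on actin. Translation efficiency (TE) is the number of footprint reads per RNA read of the coding sequence (CDS). Reads of both kinds grow with length, so TE reports how densely a message is loaded with ribosomes, not how many it carries.

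The siPKM libraries had less Pkm message, the target of the siRNAs, with 5024 CPM (counts per 1000000 CDS reads of the library) in siCtrl RNA and 1582 in siPKM RNA, and 5311 and 1683 among footprints. CDS reads used per library ranged from 10349212 to 15175242. Of 10 embryonic stem cell markers 9 were in the table, with a summed level of 4679 CPM in siCtrl RNA and 4573 in siPKM RNA. Their log2 RNA ratios of siPKM over siCtrl ran from -0.29 for Zfp42 to 0.55 for Esrrb, and 6 of the 9 were below 0. Of the markers of other cell types, the table held 3 of 9 for trophoblast (summed 77.5 and 83.6 CPM, with log2 ratios of siPKM over siCtrl of 0.59 for Krt8 and -0.60 for Tfap2c, Tcfap2c in the table), 1 of 12 for fibroblasts and smooth muscle (229 and 304, all Vim), 1 of 8 for primitive endoderm (15.1 and 16.4, all Cubn) and 5 of 7 for neural cells (228 and 171). Every row held over 150 CDS reads in each RNA and RPF library, so a marker at or near 0 could not be seen, and the part of cell composition in the results was not tested. In these bulk libraries fewer cells of a type and less RNA per cell cannot be told apart.

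In control cells, 3 of the 8 messages had very few footprints for their RNA reads. Control TE was at least 4-fold below that of the median gene for 3 of the 8 genes, Flna, Iqgap1 and Macf1, against 0.934% of all genes. These 3 were selected on their lower TE after knockdown, a contrast that uses the same siCtrl libraries, so the count is a description. Every row held over 150 CDS reads in each RNA and RPF library, so a message with low TE was in the table only if it had many RNA reads. Shares, counts and ranks at the low end of TE, here and below, therefore hold among such genes only. Levels below are log2 TE relative to the median gene, with 95% intervals that cover counting error only.

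Flna encodes filamin A, which cross-links actin filaments into networks and anchors them to membrane proteins (row NM_010227). Its CDS had 18129 reads in siCtrl RNA and 2005 in siCtrl RPF, and 21829 and 1490 in the siPKM libraries. Control TE was -3.33 (-3.39 to -3.26), or 10.0-fold below the median gene, the 4th lowest of 6532. In siPKM it was -3.97, 15.7-fold below. Flna was thus low in both pairs of libraries, and it was lower in the siPKM pair.

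Iqgap1 encodes a scaffold that binds actin, calmodulin and the small GTPases Cdc42 and Rac1 (NM_016721). It had 2962 and 339 CDS reads in siCtrl RNA and RPF, and 2947 and 190 in siPKM. Control TE was -3.27 (-3.44 to -3.11), the 7th lowest, and -4.05 in siPKM, the 4th lowest there. The intervals of Flna and Iqgap1 overlapped in siCtrl, so their order is not resolved.

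Macf1 encodes the spectraplakin MACF1, which links microtubules to actin (NM_001199136). It had 9695 and 1644 CDS reads in siCtrl and 11659 and 1141 in siPKM. Control TE was -2.71 (-2.78 to -2.63), 6.54-fold below the median gene and 13th lowest, and -3.45 in siPKM. Its interval lay above those of Flna and Iqgap1.

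Plec encodes plectin, a plakin that joins intermediate filaments to actin, microtubules and adhesion sites (NM_001163540, described as isoform 12alpha). It had 2660 and 1070 CDS reads in siCtrl and 2226 and 641 in siPKM. Control TE was -1.46 (-1.57 to -1.36), and 3.49% of genes were lower. Plec was thus low among all genes but above Macf1, Flna and Iqgap1.

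The other 4 genes stood above the median gene in siCtrl. Myh10, the heavy chain of nonmuscle myosin IIB (NM_175260), had 2558 and 3657 CDS reads and a control TE of 0.37 (0.29 to 0.44). Tln1, or talin 1, which couples integrins to actin (NM_011602), had 4060 and 6843 reads and a TE of 0.60 (0.55 to 0.66). Myh9, the heavy chain of nonmuscle myosin IIA (NM_022410), was highest, with 3713 and 7410 reads and a TE of 0.85 (0.79 to 0.90). These 3 did not overlap each other.

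Ank2, or ankyrin B, which anchors membrane proteins to the spectrin skeleton, had 176 and 247 CDS reads and a control TE of 0.34 (0.06 to 0.62), an interval that overlapped that of Myh10 and that of Tln1. Its row has no RefSeq identifier and is described as a partly similar cDNA clone, and it had 0 reads in the 3' UTR in all 4 libraries. What it says of the full Ank2 message is uncertain.

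**Figure D1:**
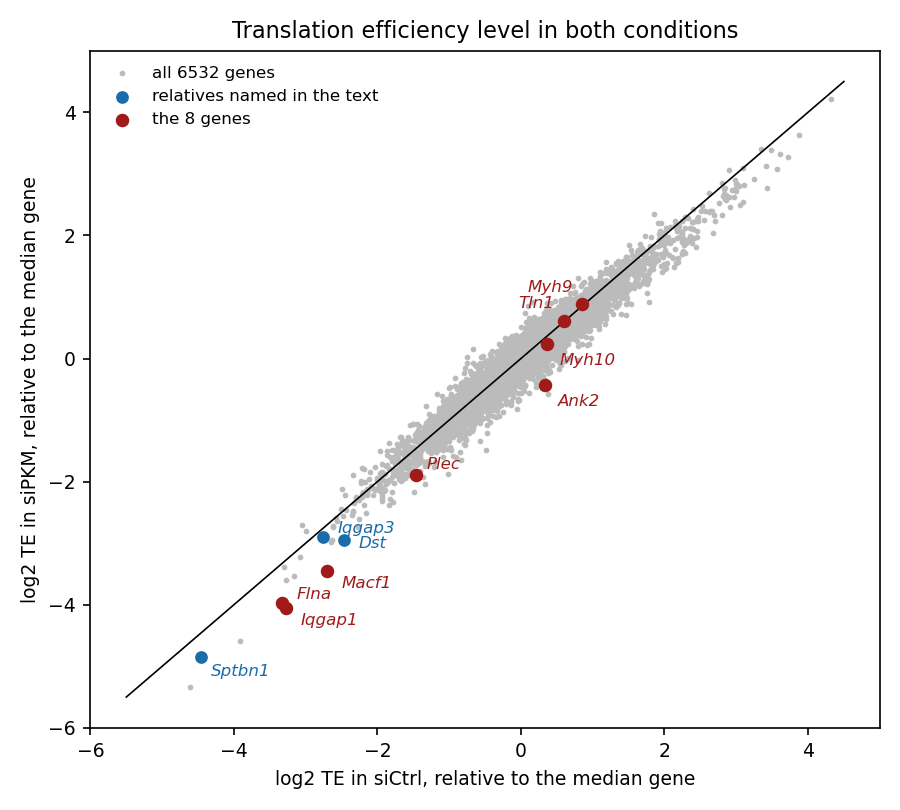
Log2 TE in siPKM (vertical) against log2 TE in siCtrl (horizontal), each relative to the median gene, for 6532 genes, 1 library of each kind per condition. Red points are the 8 genes, blue points are 3 relatives, and the line marks equal values. Flna, Iqgap1 and Macf1 lie at the low end, between -3.33 and -2.71 in siCtrl and between -4.05 and -3.45 in siPKM, and Ank2 drops from 0.34 to -0.43, whereas Myh9 and Tln1 lie near the line.

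Relatives of these genes in the table were looked up by family after their values were seen. Low control TE recurred in some of them and not in others. Flnc (filamin C) stood at -0.21, far above Flna. Dst (dystonin, the other mammalian spectraplakin) stood at -2.47, while the plakins Dsp (desmoplakin) and Eppk1 (epiplakin) stood at -0.01 and 0.26. Iqgap3 stood at -2.75 and Iqgap2 at -0.24. Ank3 (ankyrin G) stood at -0.36 and Tln2 at -0.66, each below its relative among the 8 genes. The beta spectrin Sptbn1 (Spnb2 in the table) was the 2nd lowest gene, at -4.46. Paralogs share stretches of sequence, and how reads with several matches were counted is not stated in the labels, so single values within a family are uncertain.

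Few footprints of the low-TE messages lay at the 5' end, and so did few RNA reads. In the 5' UTR and the first 15 codons together, Flna had 83 RNA reads and 16 footprints in siCtrl, or 0.193 footprints per RNA read, beside 0.111 in the rest of the CDS. Myh9 had 132 and 343 there (2.60 per RNA read, beside 2.00 in the CDS), Tln1 109 and 270 (2.48, beside 1.69) and Myh10 56 and 210 (3.75, beside 1.43). In siCtrl, footprints per RNA read were thus higher at the 5' end than in the body for these 4 genes. The gap between Flna and the others was present in both regions. In siPKM, Myh9 was nearly even (2.04, beside 1.98). Tln1 stood there at 1.93 beside 1.64, Myh10 at 1.63 beside 1.26, and Flna at 0.111 beside 0.0683 on 10 footprints.

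For the others the 5' end could not be read. Macf1 had 0 RNA reads and 3 footprints there in siCtrl, and Plec had 3 and 6. Iqgap1 had 0 reads in the 5' UTR and first 15 codons in every library, including 0 of 4100 transcript reads in siCtrl RNA, which allows a share of up to 0.0732% in either region. Over all genes these regions held 4.43% and 2.71% of siCtrl RNA reads and 5.41% and 6.90% of footprints. In the 3' UTR, Iqgap1 had 27.5% of its RNA reads (exact Clopper-Pearson interval 26.1 to 28.9) and 0 of 340 footprints, which allows up to 0.882%. Myh10 was similar, with 28.9% of RNA reads and 0.0774% of footprints (0.0160 to 0.226). In Flna and Macf1 the 3' UTR held 2.51% and 4.76% of RNA reads, and 0 of 2023 and 0 of 1649 footprints.

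After knockdown, Macf1, Flna, Iqgap1 and Ank2 had more message and fewer footprints relative to the median gene, although the footprint difference of Ank2 was within counting error. TE was at least 1.5-fold lower (a log2 ratio of -0.58 or less) for these 4 of the 8 genes, against 0.827% of all genes, and at least 1.5-fold higher for 0, against 0.184%. That contrast chose them, so the count is no result about them. The nearest value inside the limit was that of Flna at -0.63, and the nearest outside was Plec at -0.41. The ratios below are log2 siPKM over siCtrl, centred on the median gene, with counting intervals.

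Iqgap1 had 245 CPM in siCtrl RNA and 285 in siPKM RNA, and 22.3 and 15.1 CPM among footprints. The log2 ratio was 0.17 (0.10 to 0.25) in RNA and -0.58 (-0.84 to -0.32) in RPF, the latter just short of the 1.5-fold limit. Its TE ratio was -0.76 (-1.02 to -0.49), the 7th lowest of all genes. Most of the difference lay in the footprints.

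Macf1 had 800.4 and 1127 CPM in RNA, and 108 and 90.9 in RPF. Its ratios were 0.45 (0.41 to 0.49) in RNA, -0.27 (-0.38 to -0.16) in RPF and -0.72 (-0.84 to -0.61) in TE. Flna had 1497 and 2109 CPM in RNA, and 132 and 119 in RPF, with ratios of 0.45 (0.42 to 0.48), -0.18 (-0.27 to -0.08) and -0.63 (-0.73 to -0.53). In both genes more of the TE difference lay in the message than in the footprints: 93.6% and 93.7% of genes had lower RNA ratios.

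Ank2 had 14.5 and 23.2 CPM in RNA, and 16.3 and 15.2 in RPF. Its RNA ratio was 0.63 (0.35 to 0.91), its RPF ratio -0.12 (-0.39 to 0.16) and its TE ratio -0.75 (-1.14 to -0.36). The wide intervals follow from 176 to 247 reads per library. Ank2 was the 1 of the 8 genes at least 1.5-fold higher in RNA, against 2.88% of all genes, and 0 of 8 were lower, against 1.24%. In RPF 0 of 8 passed the limit downward, against 1.53%, or upward, against 2.66%.

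Plec had 220 and 215 CPM in RNA, and 70.5 and 51.1 in RPF. Its RNA ratio was -0.08 (-0.16 to 0.00), its RPF ratio -0.49 (-0.63 to -0.34) and its TE ratio -0.41 (-0.57 to -0.25). Plec thus had fewer footprints on a message whose difference was within counting error.

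Both myosins and talin differed little in TE. Myh9 had 307 and 345 CPM in RNA and 488 and 564 in RPF, and a TE ratio of 0.06 (-0.02 to 0.14). Tln1 had 335 and 429 CPM in RNA and 451 and 579 in RPF: both were higher in siPKM, with ratios of 0.31 and 0.34, and TE stood at 0.03 (-0.05 to 0.11). Myh10 had 211 and 220 CPM in RNA and 241 and 230 in RPF, and a TE ratio of -0.11 (-0.22 to -0.00). Within counting error, the TE intervals of these 3 genes leave room for no more than -0.22 on the low side.

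Pairwise differences in TE ratio resolved part of the order of the 8 genes. Since Macf1, Flna, Iqgap1 and Ank2 were selected on this ratio, their distance from the other 4 restates the choice and is given as a description. Among Macf1, Flna, Iqgap1 and Ank2, each interval of a difference included 0, such as -0.10 (-0.25 to 0.06) for Macf1 minus Flna. Plec was higher than Macf1 by a log2 difference with an interval of -0.51 to -0.11 (Macf1 minus Plec, -0.31), Flna minus Plec was -0.21 (-0.41 to -0.02), and Iqgap1 minus Plec was -0.34 (-0.66 to -0.03). Ank2 minus Plec was -0.33 (-0.76 to 0.09), which did not separate them. Among the 4 genes not selected on the ratio, Plec minus Myh10 was -0.30 (-0.50 to -0.11). The myosin paralogs were 0.17 (0.03 to 0.30) apart, and Myh9 minus Tln1 was 0.03 (-0.08 to 0.14), which did not separate them.

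**Figure D2:**
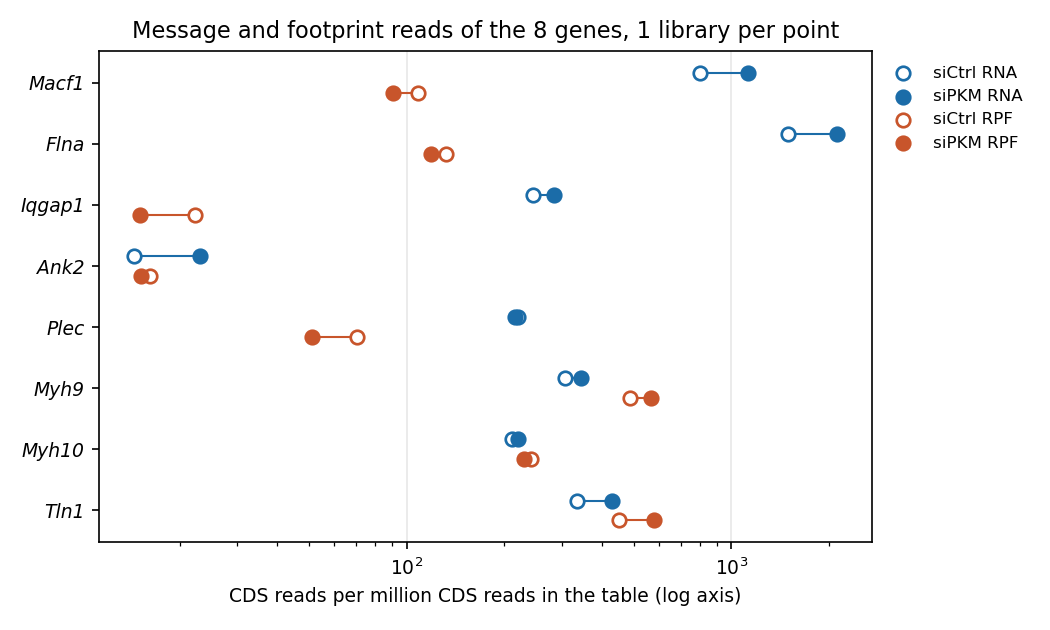
CDS reads in CPM (log axis) of each gene in the 4 libraries, siCtrl as open and siPKM as filled points, RNA in blue and RPF in orange. Each point is 1 library. Levels are not divided by length and compare conditions within a gene. In Macf1, Flna, Iqgap1 and Ank2 the siPKM point lies higher in RNA and lower in RPF, at 15.1 against 22.3 in Iqgap1 footprints, and in Tln1 it lies higher in both.

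**Figure D3:**
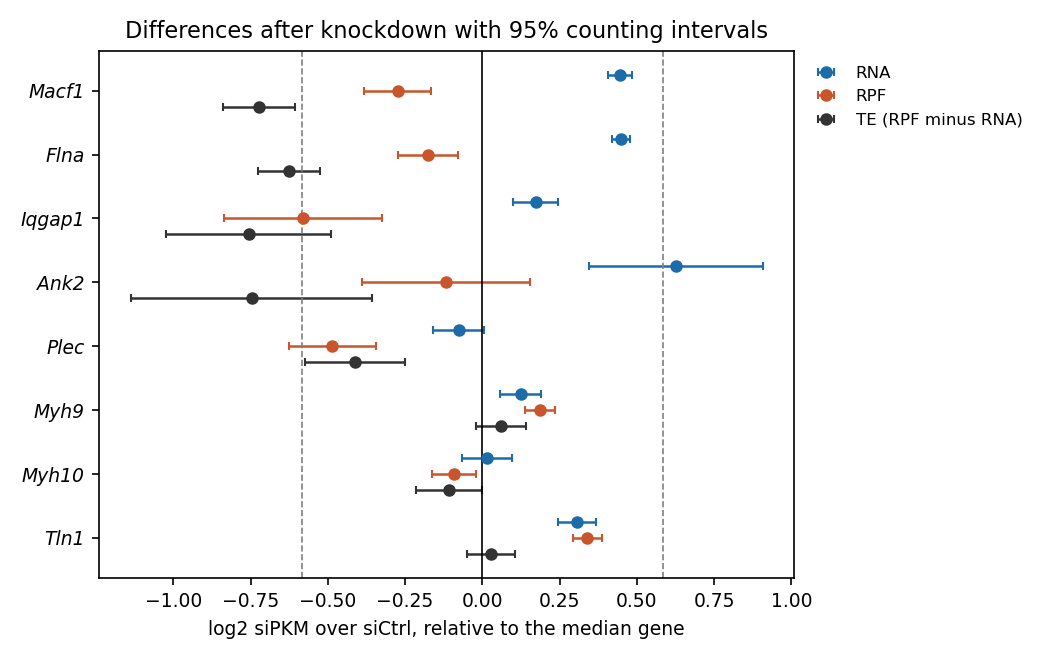
Log2 ratios of siPKM over siCtrl, relative to the median gene, in RNA (blue), RPF (orange) and TE (black). Bars are 95% counting intervals and dashed lines mark 1.5-fold. TE lies between -0.76 and -0.63 for Macf1, Flna, Iqgap1 and Ank2, at -0.41 for Plec and between -0.11 and 0.06 for Myh9, Myh10 and Tln1.

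Over the 8 genes the median ratio was 0.24 in RNA, -0.15 in RPF and -0.52 in TE, beside 0 for all genes by the centring. RNA stood above 0 for 7 of 8 and RPF below 0 for 6 of 8, beside 50% of all genes for each by the centring. RNA above 0 with RPF below 0 was seen in 5 of 8 (Macf1, Flna, Iqgap1, Ank2 and Myh10), against 12.8% of all genes. Macf1, Flna, Iqgap1 and Ank2 were selected on TE, which is RPF minus RNA, so these medians and counts are no result about the 8 genes. The RNA ratio of Myh10, 0.01 (-0.07 to 0.10), was within counting error. The lower TE of Macf1 and Flna went with a higher RNA ratio. That RNA ratio could be set beside reads the choice of genes had not used, those of the 3' UTR. They came from the same 2 RNA libraries and are no replicate. For Macf1, 485 and 610 such reads gave 0.51 (0.34 to 0.68), and for Flna 470 and 515 gave 0.31 (0.13 to 0.49). Iqgap1 (1127 and 1042 reads) stood at 0.07 (-0.06 to 0.19) and Plec (181 and 133) at -0.26 (-0.59 to 0.06). Tln1 stood at 0.19, Myh9 at 0.09 and Myh10 at 0.04, with intervals that included 0.

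Genes with a low control TE were set beside all genes for their TE ratio after knockdown. Of all genes, 61 had a control TE at least 4-fold below the median gene, and their median TE ratio was -0.02, so as a group they stood near the median gene. At least 1.5-fold lower were 5 of the 61, beside 0.827% of all genes. Those 5, or 0.0765% of all genes, held 3 of the 8 (Iqgap1, Macf1 and Flna). These 3 had been selected on that lower TE, so nothing is read from their presence or from the share among the 61. Control TE also enters the TE ratio with a negative sign, as both used the same siCtrl libraries.

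The CLIP libraries counted where reverse transcription stopped next to RNA crosslinked to tagged PKM2. Plec, Macf1, Iqgap1 and Flna had more such stops than their message level, and Tln1 and Myh10 fewer. At least 2-fold more stops than control RNA reads, both in CPM, were seen in both replicates for 4 of the 8 genes, against 24.0% of all genes. CLIP stops were not used to choose the genes. Control RNA, the denominator here, also enters the TE ratio on which Macf1, Iqgap1 and Flna were selected, so the count is a description. By the mean of both replicates, 4 of the 8 and 1769 of all genes passed over control RNA. Over siPKM RNA, which also enters the TE ratio, 3 of the 8 and 1573 of all genes did. The control RNA came from wild-type siCtrl cells and the CLIP from tagged cells.

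Plec had 809 and 634 stops, or 1070 ± 176 CPM (SD, n = 2), and a log2 CLIP over RNA of 2.84 ± 0.24, above that of 97.6% of genes. Macf1 had 2059 and 1898 stops, 2935 ± 147 CPM, and stood at 2.46 ± 0.07. Iqgap1 had 448 and 402 stops, 630.4 ± 43.6 CPM, and stood at 1.56 ± 0.10. Replicates of these 3 genes lay clear of 2-fold.

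Flna had 1593 and 1337 stops, 2173 ± 253 CPM, and stood at 1.15 ± 0.17, with replicate 2 at 1.03. That 2-fold call did not hold over siPKM RNA (0.66) or over control CDS reads alone (0.53). Ank2 had 10 and 13 stops, 17.1 ± 3.27 CPM, and stood at 0.88 ± 0.27, on too few stops to place it. Myh9 had 212 and 188 stops (297 ± 23.0 CPM) and stood at 0.28 ± 0.11, near the median of all genes at 0.07.

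Myh10 had 103 and 89 stops, 142 ± 13.6 CPM, and stood at -0.43 ± 0.14. Tln1 had 100 and 98 stops, 147 ± 1.02 CPM, and stood at -0.64 ± 0.01. Both had fewer stops than message reads. The myosin paralogs differed in CLIP over RNA in both replicates, with Myh9 at 0.36 and 0.20 and Myh10 at -0.33 and -0.53.

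**Figure D4:**
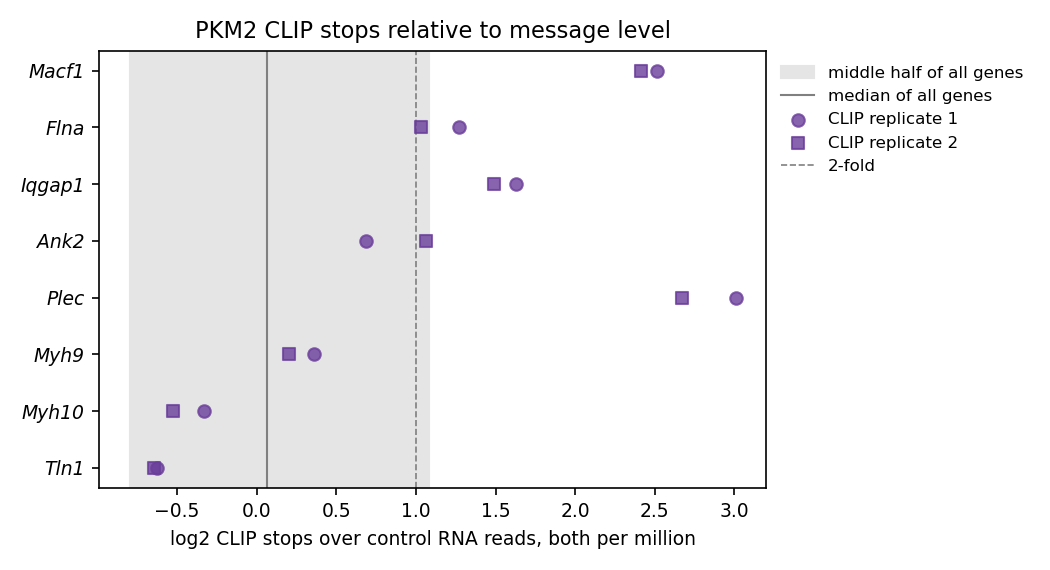
Log2 of CLIP stops over control RNA reads, both in CPM, for each gene in CLIP replicate 1 (circles) and replicate 2 (squares). The grey band is the interquartile range of all genes, the solid line their median of 0.07 and the dashed line 2-fold. Plec, Macf1 and Iqgap1 lie above the band, and Tln1 and Myh10 lie in its lower part, at -0.64 and -0.43.

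Across all 6532 genes the Spearman correlation of TE ratio with CLIP over RNA was -0.33, given as a description, since both contain the control RNA library. With siPKM RNA as the denominator, and stops averaged over the replicates before the log, it was -0.30. The siPKM RNA library also enters the TE ratio, with a sign opposite to that of control RNA, so this value is a description too. The 1565 genes at 2-fold CLIP over RNA had a median TE ratio of -0.10, and the other 4967 one of 0.02.

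A control TE at least 4-fold below the median gene together with CLIP over RNA of at least 2-fold in both replicates was seen for 12 genes, or 0.184% of all genes, and 3 of the 8 were among them (Flna, Iqgap1 and Macf1). Another 3 came from the cytoskeleton lists below, among them Sptbn1 and Dst. The TE ratios of these 6 ran from -0.76 to -0.36, with Sptbn1 at -0.36 (-0.61 to -0.12) and Dst at -0.45 (-0.59 to -0.30). At least 1.5-fold lower in TE were 4 of the 12, or 0.0612% of all genes, and they included 3 of the 8 (Iqgap1, Macf1 and Flna), whose lower TE was the ground for choosing them. The remaining 6, Trpm7, Rc3h2, Wwp1, Trps1, Edem1 and Ext1, which are not in those lists, ran from -0.13 to 0.41. This set was formed after the values were seen, and 3 of its 6 cytoskeletal genes were selected on the TE ratio, so the gap between its 2 sides is a description. Built from the siPKM libraries instead, it held 11 genes with 5 from the cytoskeleton, without Flna, and the others reached down to -0.35. Without CLIP replicate 1 it held 14, with Iqgap3 at a TE ratio of -0.13 (-0.44 to 0.18).

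**Figure D5:**
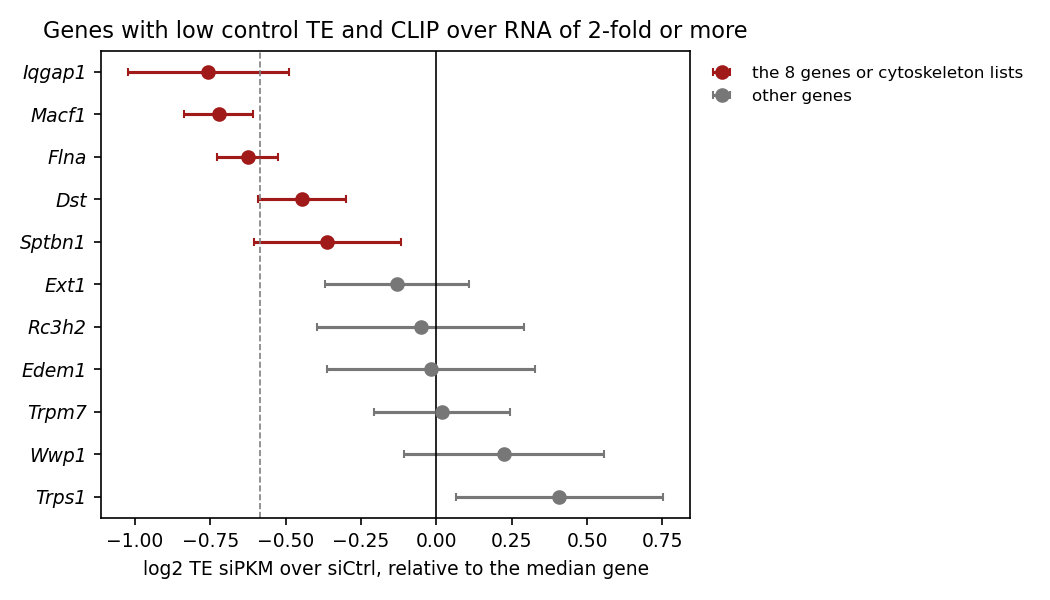
Log2 TE ratio of siPKM over siCtrl for 11 of the 12 genes with control TE at least 4-fold below the median gene and CLIP over RNA of at least 2-fold in both replicates, with 95% counting intervals. The dashed line marks 1.5-fold lower. The 5 cytoskeletal genes shown (red) lie between -0.76 and -0.36 and the other 6 (grey) between -0.13 and 0.41.

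The rest of the actin and microtubule cytoskeleton was read through 6 lists with 167 genes in the table, the 8 genes left out. Their median TE ratio was -0.04, and 4 (2.40%) were at least 1.5-fold lower and 0 higher, against 0.827% and 0.184% of all genes. Among the 4 were the microtubule-binding tumour suppressor Apc at -0.65 (-0.83 to -0.48), the microtubule-associated protein Map1a (Mtap1a in the table) at -0.62 (-0.85 to -0.40), and Git1, a scaffold of focal adhesions, at -0.59 (-0.79 to -0.38). These 3 had RNA ratios of 0.47 to 0.62 and CLIP over RNA of 2.03 to 3.30. Control TE at least 4-fold below the median gene was seen for 4 of the 167, among them Sptbn1, Dst and Iqgap3, against 0.934% of all genes.

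Among plakins, filamins and actin crosslinkers (21 genes, median TE ratio -0.06), 14 were below the all-gene median of 0. Besides Dst, the large scaffold Ahnak stood at -0.53 (-0.64 to -0.42) and Eppk1 at -0.49 (-0.89 to -0.10), while Flnc stood at 0.04 and the actin-binding Palld, highest in the list, at 0.23. Tagln2 and Cnn3, which bind actin filaments, passed 1.5-fold upward in both RNA and RPF (0.61 and 0.62, and 0.68 and 0.63), and Actn3, an alpha-actinin, was lower in both (-0.97 and -0.93). These were 2 of 21 higher in each, against all-gene shares of 2.88% (RNA) and 2.66% (RPF), and 1 of 21 lower, against 1.24% and 1.53%. The spectrin, ankyrin and membrane skeleton list (15 genes, median -0.00) had 0 past the TE limit in either direction, against 0.827% of all genes lower and 0.184% higher. At these shares a 0 among 15 genes is no result about them. Sptbn1 was lowest and Nf2, or merlin, highest at 0.23. Epb41l3 stood at 0.65 in RNA.

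Integrin and focal adhesion genes (28 genes, median TE ratio -0.04) differed more in message than in TE. At least 1.5-fold higher in RNA were 6 of 28, against 2.88% of all genes, and 0 were lower, against 1.24%. The 6 were the integrins Itga3 at 0.97, Itgav at 0.64, Itga6 at 0.62 and Itga5 at 0.62, the adapter Parvb at 0.81, and Git1 at 0.62. In RPF, 2 were past the limit, Itga3 at 0.79 and Parvb at 0.91, against 2.66% of all genes. Tln1, which binds integrin tails, had RNA and RPF ratios of 0.31 and 0.34. Highest in TE was Itga9 at 0.29.

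Among myosins and their regulators (23 genes, median TE ratio -0.09), 3 passed 1.5-fold upward in both RNA and RPF, against all-gene shares of 2.88% (RNA) and 2.66% (RPF): Myo18a at 1.09 and 1.14, Myo6 at 0.96 and 0.70 and Myo1e at 0.74 and 0.67. None of the 3 passed the TE limit. The kinase Rock1, which activates myosin II, was lowest in TE at -0.28 (-0.48 to -0.09), and Cdc42bpa highest at 0.16. Small GTPases, IQGAPs and actin assembly (45 genes, median -0.04) had 0 past the TE limit, against 0.827% of all genes lower and 0.184% higher. At these shares a 0 among 45 genes is no result about them. Tmsb10, which binds actin monomers, was highest at 0.53 (0.21 to 0.85) and Abi2 lowest at -0.24. The relatives of Iqgap1 stood at 0.25 (Iqgap2) and -0.13 (Iqgap3). Rhoc was higher in RNA at 0.60 and Diaph2 in RPF at 0.71.

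Microtubule genes (35 genes, median TE ratio -0.04) held Apc and Map1a at the low end and Tuba1a at the high end, at 0.33. Stmn1, which destabilises microtubules, was lower in RNA and RPF (-0.75 and -0.68), as was the neuronal tubulin Tubb3 (-0.64 and -0.59), and Camsap3 was lower in RPF (-0.73). Of the neural markers, which include Tubb3, Nes stood at -0.54 and -0.72, Ina at -0.81 and -1.24, and Ncam1 at 0.64 and 0.67. Their part in the microtubule list was not tested.

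The genes nearest to the median of the 8 in RNA ratio, RPF ratio and CLIP over RNA, by Euclidean distance in these 3 quantities over all 6 libraries, were Rnf31 (distance 0.0275), Zkscan17 (0.0732), Dop1a (Dopey1 in the table, 0.0849), Pik3cb (0.0947) and Tbc1d13 (0.0974). Their TE ratios ran from -0.48 to -0.26, which the choice set in advance, since TE is RPF minus RNA and both entered the distance. Their control TE, which did not enter it, ran from -0.68 to 0.68, above that of Flna, Iqgap1 and Macf1.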

How the data were processed

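The submitters' processing notes name cutadapt, Bowtie2 and mm9. For their versions, the counting tool, multiple matches and strand, the entry is: not given in the sources used here. The authors deposited 1 table with raw counts of reads per transcript region and of reverse transcription stops per mature transcript, per the file headers, and their own log2 RPM, log2 TE and log2 CLIP enrichment. It had 6535 rows, and 3 duplicate symbols were dropped. A floor on the mean CDS reads (64, applied to each kind of library) removed 0 genes.

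CDS reads, leaving out 15 codons at the start and 5 at the end, plus 0.5 were scaled by the library's sum, and log2 ratios of siPKM over siCtrl were centred on the median gene. A change shared by all genes therefore cannot be seen. TE is RPF minus RNA, centred again. CLIP over RNA is the mean over replicates of log2 CPM of stops over CPM of siCtrl whole-transcript reads. CLIP libraries held 677534 and 670508 stops.

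With 1 library per group no test was made. The 95% intervals are normal approximations on the log scale or, for shares, exact (Clopper-Pearson). Both kinds, and the limit of 3 counts for a 0, cover counting error only: PCR copies without molecular identifiers are no independent molecules. The ratios were tested on simulated counts with known differences. Those counts carried counting error only, as the intervals assume, so variation between libraries was not tested.

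The genes and lists were chosen with earlier results of these data known. Named were the 8 genes and, of each list, the genes at least 1.5-fold apart and the highest and lowest in TE. Relatives, and genes named singly beside them, were added after their values were seen. Of the genes the rule takes, 1 is not reported here. Table symbols were matched by RefSeq identifier to current names for 6466 genes (assembly GRCm38.p6, so no coordinates are given). A planned comparison by coding length was not run, as coding lengths were not used here. Alternatives included TMM factors of edgeR 4.0.16 (R 4.3.3). Other work used Python 3.11.15, pandas 2.3.3 and scipy 1.17.1.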

Additional observations from a re-analysis of the deposited data

How the results depend on the processing

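The counts of the 8 genes at least 1.5-fold lower in TE, above the median gene in RNA and below it in RPF kept within 1.5 times under every alternative run (scaling, centring, region, added reads, floor and, for TE, the authors' deposited table). All of these reused the same RNA and RPF libraries, and the TE count restates the choice of genes, so their stability is no replicate check. Leaving out the floor changed nothing, as it had removed 0 genes. A floor 4 times as high removed Ank2, leaving 3 of 7 genes past the TE limit, and 35 of all genes in place of 54. Medians of CLIP over RNA over the 8 genes moved from 1.01 to 0.41 with control CDS reads as the denominator, 0.42 with siPKM RNA, 2.01 with control footprints, 1.23 with 5 counts added and 1.29 in the authors' deposited table. Over all genes these choices shifted the median by 0.09, -0.03, 0.29, 0.17 and 0.28. Myh9 changed sign, to -0.046 over control CDS reads and -0.72 over control footprints. Leaving out a CLIP replicate gave 4 to 5 genes at 2-fold, medians of 0.98 to 1.05, 1767 to 1804 of all genes (1769 by the mean of both), and 13 to 14 genes with low control TE and high CLIP. In the siPKM libraries the median TE level of the 8 genes was -1.16 in place of -0.56, and that of Ank2 was -0.43. Low read numbers limit Ank2 and the 5' ends most. No paired analysis was possible because siCtrl and siPKM had a single RNA and a single RPF library each, with no replicate numbers.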
